A study of Mus musculus with 4 samples.

Results

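Prostaglandins and leukotrienes are short-lived lipid mediators made from arachidonic acid, and the 9 genes described here encode the proteins that make them or break them down. The cyclooxygenases Ptgs1 and Ptgs2 convert arachidonic acid to prostaglandin H2, Ptges turns this into prostaglandin E2, Hpgds turns it into prostaglandin D2, and Hpgd inactivates prostaglandins. In the other branch Alox5 (5-lipoxygenase), helped by its membrane partner Alox5ap, makes leukotriene A4, from which Lta4h makes leukotriene B4 and Ltc4s makes leukotriene C4. In the liver these mediators are known as products of macrophages, neutrophils and dendritic cells, and they act on blood flow, on leukocyte entry and on the activation and migration of dendritic cells.

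The 9 genes, of 32285 in the matrices, were selected from this pathway with earlier RNA levels of the same libraries in view, so their RNA levels across classes are given as a description. All 9 had at least 1 UMI (unique molecular identifier, a counted RNA molecule) among the nuclei kept on each day. In the accessibility layer, 48 of 127216 peak regions shared by both libraries lay within 10 kb of their start sites. At the edge of that window, the last region inside (Hpgds, 9767 bases from the start site) had 3.06 and 3.29 fragment CPM in cDC2-like nuclei at D0 and D5, and the first outside (Lta4h, 10645 bases) had 3.01 and 2.55. A Ptgs1 region also just inside, at 9681 bases, had 12.2 and 15.6, out of 24.9 and 26.2 in the whole Ptgs1 window. The Ptgs1 window thus depends on where the limit was set.

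The samples are the RNA and the ATAC (open chromatin) layers of 2 10x Multiome libraries, in which both layers are read from the same nucleus. Nuclei came from livers of male C57BL/6J mice aged 6 to 12 weeks, and both libraries were sorted for live CD45+ CD64- CD11c+ cells, a gate for dendritic cells that should leave out most macrophages. The D0 library is the control with 0 days on the diet, and the D5 library came after 5 days on chow with 0.1% DDC (3,5-diethoxycarbonyl-1,4-dihydrocollidine), a compound that injures bile ducts and serves as a model of cholangitis. How many mice were pooled per library is not given in the sources used here. Each day is 1 library, so there is no replicate and no test. The 95% intervals reflect counting error alone, and day and library cannot be told apart.

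At D0 44496348 UMIs were counted in 16260 called barcodes, and at D5 94374499 in 27873, and 591 barcodes were called in both libraries. After filtering and removal of likely doublets 10983 and 19832 nuclei were kept, with medians of 1732 and 2556 UMIs. Joint clustering of RNA, with the 9 genes and the other pathway genes left out of the clustering genes, gave 21 clusters. Of these, 16 could be named from markers as 9 classes, always with the ending "-like", and 5 stayed unnamed (1397 nuclei at D0 and 3060 at D5). cDC2-like nuclei (type 2 conventional dendritic cells, 2429 at D0 and 7510 at D5) carried at least 4 of 9 cDC2 markers in each of their 5 clusters, and cDC1-like, pDC-like (plasmacytoid) and Ccr7+ DC-like (mature, migratory) nuclei carried from 5 to 9 markers of their lists. Macrophage-like nuclei were present despite the gate: 710 and 977 nuclei carried 8 of 10 macrophage markers, C1qa, C1qb and C1qc among them. Their cluster also carried 4 of 9 cDC2 markers, so the name is not a clean separation from cDC2. Neutrophil-like nuclei numbered 6 at D0 and 93 at D5, so only their D5 level is given, and the D0 nuclei enter the correlations of gene patterns alone. Barcodes that held no nucleus, called empty droplets here, give the make-up of free RNA. At D0 617257 of them held 2484533 UMIs, and at D5 657384 held 5349315. A gene's level in them is its share of these UMIs, and how much free RNA a nucleus held was not measured.

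The 2 main cDC2-like states were the nuclei of a subcluster led by Mir155hg and Tnip3 (1061 at D0, 3099 at D5) and preDC-like nuclei (dendritic cell precursors; 207 and 1442), which made up 8.52% of the cDC2-like nuclei at D0 and 19.2% at D5. The Mir155hg/Tnip3 state scored highest on the Clec10a+ list, with 3 of 6 markers raised over the other subclusters, but it had 4 of 6 Ccr7+ markers raised too, and Ccl22 of that list was among its 10 leading genes, while no Clec10a+ marker was. It is therefore named by its leading genes. The remaining cDC2-like nuclei received no state.

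Levels are given as CPM, the UMIs of a gene in all nuclei of a class and day, scaled to a total of 1000000. Ptgs2, the inducible cyclooxygenase, was found mainly in myeloid nuclei. In cDC2-like nuclei it had 289 CPM (274 to 304; 1419 UMIs) at D0 and 195 CPM at D5 (4231 UMIs). In nonclassical monocyte-like nuclei it had 160 CPM (22 UMIs) at D0 and 51.8 CPM (14 UMIs) at D5. In macrophage-like nuclei it had 222 and 120 CPM, and in Ccr7+ DC-like nuclei 176 and 174 CPM. The cDC2-like, macrophage-like and Ccr7+ DC-like classes stood above the empty droplets (78.5 CPM on D0, 80.9 CPM on D5), nonclassical monocyte-like nuclei at D0 alone. The D5 level of neutrophil-like nuclei, 554 CPM (454 to 669), was above that of any other class. The level was 34.5 and 28.0 CPM in cDC1-like nuclei, 30.4 and 27.0 CPM in NK cell-like nuclei, 18.6 and 23.7 CPM in the pDC-like class and 14.3 and 30.3 CPM in T cell-like nuclei. All of these lymphoid, pDC-like and cDC1-like levels were under that of the empty droplets, and their neighbours in this order had overlapping intervals at D5. When every nucleus was thinned to 1000 UMIs, 19.2% of cDC2-like nuclei at D0 and 13.1% at D5 held a Ptgs2 UMI, against 2.05% and 2.12% of T cell-like nuclei, a class that should lack the gene. The median depths before thinning were 1830 and 2627 UMIs in cDC2-like nuclei and 1222 and 1733 UMIs in T cell-like nuclei.

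**Figure D1:**
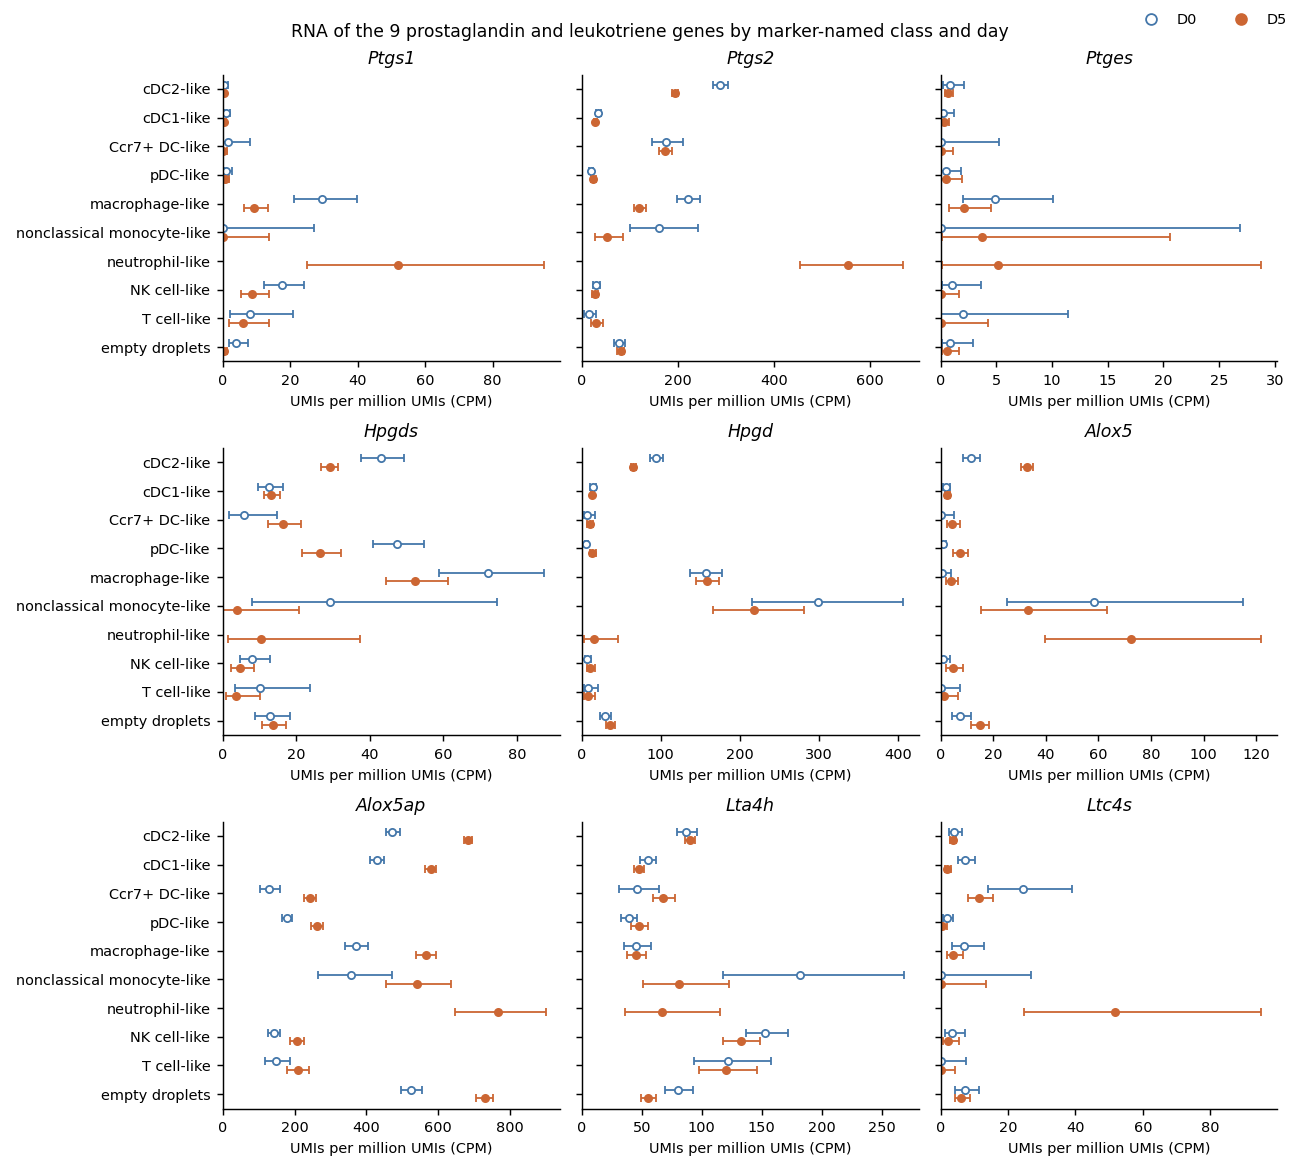
RNA level of each of the 9 genes (x axis, CPM, linear from 0) in the 9 marker-named classes and in empty droplets (y axis) at D0 (open circles) and D5 (filled circles), with bars for the exact 95% Poisson interval. Neutrophil-like nuclei are shown at D5 only. Alox5ap sits further right at D5 in each class and in the empty droplets, Ptgs2 is at 289 and 195 CPM in cDC2-like nuclei, and Alox5 rises above 50 CPM only in nonclassical monocyte-like nuclei at D0 and neutrophil-like nuclei at D5.

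The constitutive cyclooxygenase Ptgs1 had another distribution. It was at 29.4 CPM (42 UMIs) in macrophage-like nuclei at D0 and 9.29 CPM (27 UMIs) at D5. In NK cell-like nuclei it had 17.4 and 8.68 CPM, and in neutrophil-like nuclei at D5 51.8 CPM, from 10 UMIs. In cDC2-like nuclei only 2 UMIs at D0 and 5 at D5 were counted, or 0.407 and 0.230 CPM. No dendritic class had more than 5 Ptgs1 UMIs on either day. Ptges, the inducible prostaglandin E synthase, had at most 5.18 CPM in any class, with 4 UMIs at D0 and 14 at D5 in all cDC2-like nuclei (0.814 and 0.645 CPM). Its transcript was barely detectable at this depth, and no difference in it could be shown.

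Hpgds, the prostaglandin D synthase of immune cells, was highest in macrophage-like nuclei at 72.0 CPM at D0 and 52.3 CPM at D5. cDC2-like nuclei had 43.1 and 29.0 CPM. pDC-like nuclei were the other class with a clear level, 47.4 CPM (186 UMIs) at D0 and 26.3 CPM (101 UMIs) at D5. The remaining dendritic classes stood lower, cDC1-like nuclei with 12.6 and 13.2 CPM and Ccr7+ DC-like nuclei with 5.73 and 16.3 CPM, beside 12.9 and 13.6 CPM in empty droplets. Hpgd, the prostaglandin-inactivating dehydrogenase, led in nonclassical monocyte-like nuclei with 299 CPM (41 UMIs) at D0 and 218 CPM (59 UMIs) at D5. Macrophage-like nuclei followed with 157 and 159 CPM, and cDC2-like nuclei had 94.4 and 65.4 CPM. In cDC1-like nuclei Hpgd was at 14.1 and 13.3 CPM, in Ccr7+ DC-like nuclei at 7.16 and 10.5 CPM, and in T cell-like nuclei at 8.16 and 8.15 CPM, all under the 29.0 and 36.3 CPM of the empty droplets. Ccr7+ DC-like nuclei thus held Ptgs2 at 174 CPM at D5 beside an Hpgd level not above that of the empty droplets.

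In the leukotriene branch, Alox5 was restricted to few nuclei. The class totals were 58.4 CPM (8 UMIs) and 33.3 CPM (9 UMIs) in nonclassical monocyte-like nuclei, 72.5 CPM (14 UMIs) in neutrophil-like nuclei at D5, and 11.4 CPM (56 UMIs) and 32.7 CPM (710 UMIs) in cDC2-like nuclei at D0 and D5. In the 6 other classes Alox5 was between 0 and 7.30 CPM on either day, not above the empty droplets at 7.24 and 14.8 CPM by more than counting error. Its partner Alox5ap was found in every class. At D0 and D5 the level was 473 and 683 CPM in the cDC2-like class, 430 and 580 CPM in the cDC1-like class and 372 and 566 CPM in macrophage-like nuclei. Lower levels were measured in pDC-like nuclei (179 and 262 CPM), NK cell-like nuclei (143 and 207 CPM) and Ccr7+ DC-like nuclei (129 and 242 CPM). Empty droplets held 525 and 730 CPM, more than any class at D0 and more than all but the neutrophil-like class at D5. The part of free RNA in the Alox5ap UMIs of these classes was not tested.

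Lta4h, the leukotriene A4 hydrolase, was higher in NK cell-like and T cell-like nuclei than in the cDC2-like class on both days. However, 1 cDC2-like cluster, described with the clusters, stood at 190 and 198 CPM. NK cell-like nuclei had 153 and 133 CPM and T cell-like nuclei 122 and 120 CPM. Nonclassical monocyte-like nuclei had 182 CPM (25 UMIs) at D0 but 81.4 CPM (22 UMIs) at D5, under the cDC2-like level of that day. cDC2-like nuclei had 87.1 and 90.1 CPM, against 80.5 and 55.5 CPM in empty droplets. The leukotriene C4 synthase Ltc4s was low throughout, with its highest dendritic level in Ccr7+ DC-like nuclei, 24.4 CPM (17 UMIs) at D0 and 11.4 CPM (37 UMIs) at D5. Neutrophil-like nuclei at D5 had 51.8 CPM from 10 UMIs, and in T cell-like and nonclassical monocyte-like nuclei no UMI was counted on either day.

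The comparison of the days asked how these genes stood after 5 days of the diet. It was read from log2 ratios of CPM, D5 over D0, for genes with a mean of at least 10 CPM in the class, and a gene was counted when the ratio passed 2-fold either way. In cDC2-like nuclei 6 of the 9 genes were measured at this level, and 1 of them, Alox5, passed 2-fold, where 4.03% of all genes did. Alox5 was higher at D5 by 1.52 (1.13 to 1.94) on the log2 scale. With the states held at their D0 shares the ratio was 0.79, and then none of the 6 passed 2-fold. The preDC-like share of the UMIs of cDC2-like nuclei was 7.71% at D0 and 18.1% at D5. Shares of finer groups within a state were not held. The part of these shares in the Alox5 difference was not tested, and with 1 library per day they cannot be told apart from the library. The 3 prostaglandin genes were lower at D5 by less than 2-fold, with intervals that left out 0: Ptgs2 at -0.57 (-0.65 to -0.48), Hpgds at -0.57 (-0.80 to -0.34) and Hpgd at -0.53 (-0.68 to -0.37). Alox5ap was higher at 0.53 (0.47 to 0.59), and Lta4h was at 0.05 (-0.10 to 0.20). In the same nuclei the summed level of the 9 cDC2 markers was 2200 CPM at D0 and 1720 CPM at D5, with 2 past 2-fold lower. That of the 8 NK cell markers was 622 and 398 CPM with 5 lower, that of the 9 pDC markers 1050 and 1070 CPM with 3 lower, and that of the 4 plasma cell markers 9.77 and 2.40 CPM with 3 lower. The macrophage list was at 109 and 63.8 CPM with 2 of 10 markers lower, and the nonclassical monocyte list at 1040 and 788 CPM with 2 of 8 lower. The part of these in the ratios was not tested. The median of the 6 was -0.24, beside -0.11 over all genes measured. TMM factors, another scaling, add 0.26 to every ratio of this comparison, which puts the median at 0.02 and Ptgs2 at -0.30 and leaves the direction of each of these 6 genes as it was, while thinning to 1000 UMIs turns Lta4h to -0.13. With TMM factors the calls of Ptgs1 in NK cell-like, Ltc4s in Ccr7+ DC-like and Lta4h in nonclassical monocyte-like nuclei, given next, fall short of 2-fold, and Alox5ap in Ccr7+ DC-like nuclei passes it.

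Alox5ap was higher at D5 in all 8 classes with 100 or more nuclei on both days, by 0.43 in cDC1-like nuclei up to 0.91 in Ccr7+ DC-like nuclei, and its level in empty droplets moved with them, from 525 to 730 CPM. The part of free RNA in this difference was not tested. In macrophage-like nuclei 1 of 6 measured members passed 2-fold (7.54% of all genes), Ptgs1 at -1.66 (-2.41 to -0.93), and Ptgs2 was at -0.89 (-1.11 to -0.66). In the same nuclei the summed level of the 10 macrophage markers was 1420 CPM at D0 and 2170 CPM at D5, with 4 of them past 2-fold upward. That of the 9 cDC2 markers was 1490 and 1210 CPM, with 1 past 2-fold lower. That of the 8 NK cell markers, a class which also holds Ptgs1 RNA, was 617 and 326 CPM with 6 past 2-fold lower, and that of the 7 hepatocyte markers 101 and 27.5 CPM with 5 lower. The part of this make-up in the result was not tested. Nonclassical monocyte-like nuclei, with only 103 and 167 nuclei, had 3 of 6 members past 2-fold, all lower at D5, where 25.2% of all genes passed: Ptgs2 at -1.63 (-2.71 to -0.60), Lta4h at -1.16 (-2.06 to -0.28) and Hpgds at -2.98 (-8.60 to 0.36), the last from 4 and 1 UMIs. In these nuclei the summed level of the 8 nonclassical monocyte markers was 4620 and 3560 CPM with 1 lower, that of the T cell list 160 and 55.5 CPM with 3 higher and 3 lower, that of the endothelial list 204 and 107 CPM with 3 lower, that of the Ccr7+ DC list 153 and 248 CPM with 3 higher, and that of the classical monocyte list 321 and 377 CPM with 3 higher. Their part in the result was not tested.

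In Ccr7+ DC-like nuclei 2 of 5 members passed (8.17% of all genes). Hpgds was higher at 1.51 (0.07 to 3.44), from 4 and 53 UMIs, and Ltc4s was lower at -1.10 (-1.96 to -0.18). In the same nuclei the summed level of the 9 Ccr7+ DC markers was 7200 CPM at D0 and 4600 CPM at D5, with 3 past 2-fold lower. That of the 8 NK cell markers was 749 and 475 CPM, with 6 past 2-fold lower, and that of the 9 T cell markers 159 and 59.7 CPM, with 4. The cDC2 list was at 583 and 570 CPM with 3 of 9 markers past 2-fold higher. The neutrophil list was at 12.9 and 37.9 CPM with 2 higher and 1 lower. The part of this make-up in the result was not tested. Ptgs2 in these nuclei stood at -0.02 (-0.30 to 0.27). Neither cDC1-like nuclei (0 of 5 members; 3.42% of all genes) nor pDC-like nuclei (0 of 4; 2.00%) had a member past 2-fold, and the largest ratio among the 4 measured members of pDC-like nuclei was that of Hpgds at -0.85 (-1.21 to -0.49). Outside the 10 CPM limit, Hpgd in pDC-like nuclei had 5.61 CPM from 22 UMIs at D0 and 13.6 CPM from 52 UMIs at D5, a ratio of 1.27 (0.53 to 2.06). Alox5 there had 0.765 CPM from 3 UMIs and 7.30 CPM from 28 UMIs, a ratio of 3.25 (1.56 to 5.62). Both genes stood below their level in empty droplets on both days. In cDC1-like nuclei Ltc4s was likewise outside the limit, with 7.38 CPM from 34 UMIs at D0 and 1.99 CPM from 22 UMIs at D5. NK cell-like nuclei had 1 of 4 members past 2-fold (4.35% of all genes), Ptgs1 at -1.01 (-1.89 to -0.16). T cell-like nuclei had 1 of 3 (10.2%), Ptgs2 at 1.09 (-0.16 to 2.53), from 7 and 26 UMIs and below the level in empty droplets on both days. There the neutrophil list was at 20.4 and 44.3 CPM and the Ccr7+ DC list at 198 and 203 CPM, each with 3 markers higher and 1 lower. The cDC1 list was at 251 and 143 CPM with 5 lower, and the pDC list at 522 and 324 CPM with 4 lower. The part of these markers in the ratio was not tested. Over the 8 classes, 9 of 39 pairs of a class and a measured member passed 2-fold, where 8.01% of the pairs of a class and any gene did. With genes from 1 CPM upward 20 of 59 passed (20.0% of all pairs), and at 1.5-fold 15 of 39 did (24.6%).

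**Figure D2:**
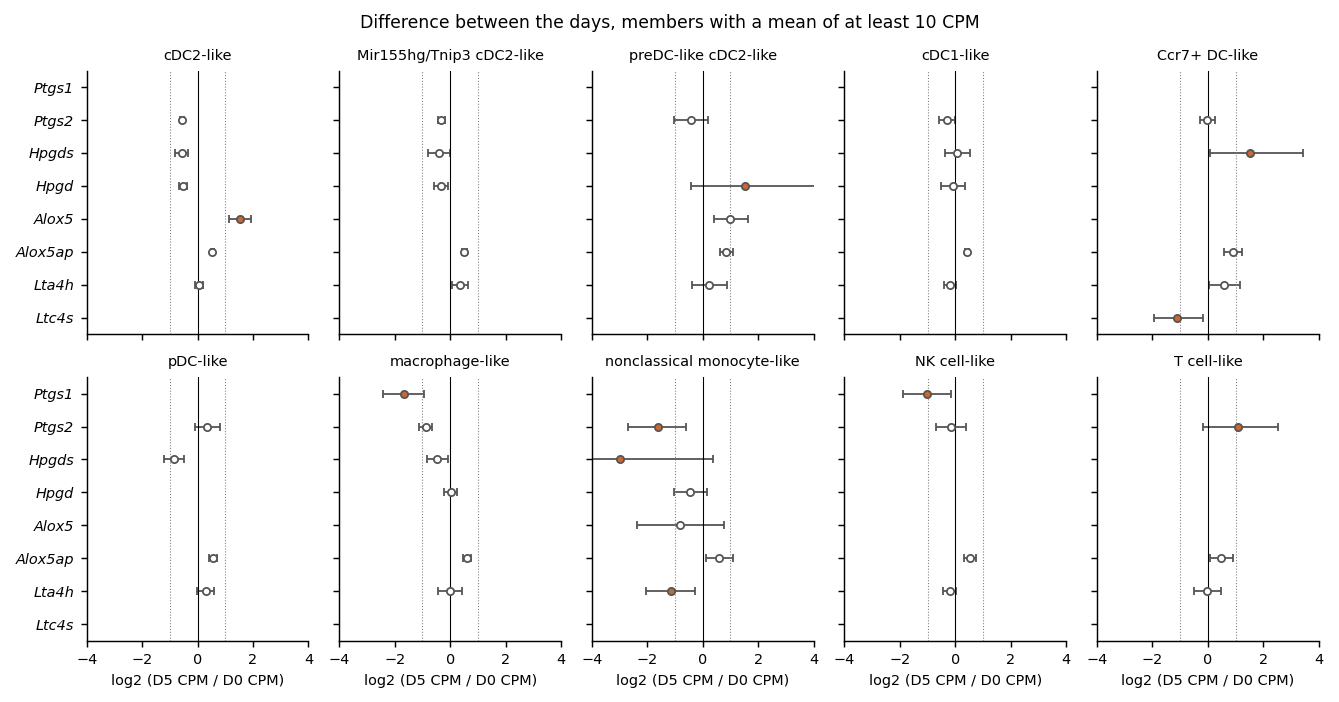
Log2 ratio of CPM, D5 over D0 (x axis), for members with a mean of at least 10 CPM (y axis) in 8 classes and 2 cDC2-like states, with bars for the 95% counting interval (bars that run past the axis are clipped). Filled circles passed 2-fold (dotted lines). In cDC2-like nuclei Alox5 alone is past the line, at 1.52, and within the Mir155hg/Tnip3 state no member is.

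The cDC2-like states were compared next, since the study set preDC against Clec10a+ cDC2. States are clusters of the same nuclei, so their RNA differences are descriptions. At D5, 4 of 6 measured members differed by more than 2-fold between preDC-like and Mir155hg/Tnip3 nuclei (12.2% of all genes did), and the same 4 did so at D0 (27.3% of all genes). Ptgs2 had 386 CPM in Mir155hg/Tnip3 nuclei and 71.2 CPM in preDC-like nuclei at D0, and 311 and 52.5 CPM at D5, a preDC-like over Mir155hg/Tnip3 log2 ratio of -2.56 (-2.77 to -2.36) at D5. Hpgd had 80.8 CPM in Mir155hg/Tnip3 and 5.28 CPM in preDC-like nuclei at D0, and at D5 64.2 CPM in the former against 59 UMIs in all of the latter, a ratio of -2.09 (-2.50 to -1.71). Hpgds had 34.1 and 7.92 CPM at D0 and 25.7 and 9.44 CPM at D5, a ratio of -1.45 (-1.99 to -0.94). These 3 were lower in the preDC-like state on both days, while Ptgs1 and Ptges were under the 10 CPM limit. The preDC-like levels of all 3 were under those of the empty droplets on both days. The part of free RNA in these levels, and so in the ratios, was not tested. At a subcluster resolution of 1.0 another subcluster took the Clec10a+ name, with 4 of 6 markers of that list raised and no Ccr7+ marker. Against its 585 nuclei at D5 the preDC-like ratio was -1.15 for Ptgs2, -3.44 for Hpgd and -2.29 for Hpgds. Without removal of doublets the ratio of Hpgd was -1.28.

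Alox5 had the opposite pattern. It was at 7.27 CPM (16 UMIs) in Mir155hg/Tnip3 nuclei and 68.6 CPM (26 UMIs) in preDC-like nuclei at D0, and at 8.88 CPM (84 UMIs) and 136 CPM (534 UMIs) at D5. The log2 ratio was 3.24 (2.29 to 4.24) at D0 and 3.94 (3.60 to 4.29) at D5, 15.3-fold on that day, and 3.12 at D5 without removal of doublets. The Mir155hg/Tnip3 levels were not above the empty droplets (7.24 and 14.8 CPM) by more than counting error. The part of free RNA in them, and so in the size of the fold, was not tested. After thinning to 1000 UMIs, 6.76% of preDC-like nuclei at D0 and 11.4% at D5 held an Alox5 UMI, against 0.754% and 0.710% of Mir155hg/Tnip3 nuclei and 0.0693% and 0.360% of NK cell-like nuclei, whose median depths were 1220 and 1731 UMIs beside 1722 and 2454 UMIs in preDC-like nuclei. Of the 710 Alox5 UMIs in cDC2-like nuclei at D5, 534 lay in the preDC-like state. The proteins that work with Alox5 did not share the pattern: Alox5ap had 406 and 453 CPM in preDC-like and Mir155hg/Tnip3 nuclei at D0 and 731 and 642 CPM at D5, and Lta4h had 63.3 and 55.9 CPM at D0 and 74.2 and 70.7 CPM at D5. Their ratios at D5 were 0.19 (0.12 to 0.25), which turns to -0.15 with TMM factors, and 0.07 (-0.13 to 0.27). The summed level of the 9 pDC markers was 6150 and 3660 CPM in preDC-like nuclei and 605 and 491 CPM in Mir155hg/Tnip3 nuclei. Siglech, Tcf4 and Runx2 are on this list and also on the preDC list that named the state, so this difference is partly set by the naming. pDC-like nuclei themselves had Alox5 at 0.765 and 7.30 CPM. The part of pDC RNA in the preDC-like levels was not tested.

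The days were then compared within each state. In Mir155hg/Tnip3 nuclei 0 of 5 members passed 2-fold between D0 and D5 (4.73% of all genes), with Ptgs2 at -0.32 (-0.43 to -0.20). In preDC-like nuclei 1 of 5 passed (11.1% of all genes), Hpgd at 1.51 (-0.41 to 4.59), from 2 and 59 UMIs and below the level in empty droplets on both days. Alox5 in preDC-like nuclei stood just short of the limit at 0.99 (0.42 to 1.62), and in the Cyp7b1/Alox5 cluster, nearly the same nuclei, it passed at 1.09 (0.49 to 1.76). Alox5ap in preDC-like nuclei was at 0.85 (0.61 to 1.09), and Ptgs2 at -0.44 (-1.02 to 0.20). The median of the 5 members was 0.85 in preDC-like nuclei, beside -0.18 over all genes measured, and -0.32 in Mir155hg/Tnip3 nuclei, beside -0.11. The value of 0.85 is that of Alox5ap alone, and in the Cyp7b1/Alox5 cluster the median of 4 measured members was 0.50. The summed level of the 6 preDC markers in preDC-like nuclei was 6980 CPM at D0 and 4570 CPM at D5, with 1 past 2-fold lower. There the T cell list was at 111 and 45.4 CPM with 3 markers lower, the plasma cell list at 31.7 and 1.53 CPM with 3 lower, and the nonclassical monocyte list at 607 and 569 CPM with 4 higher and 1 lower. In Mir155hg/Tnip3 nuclei the NK cell list was at 642 and 423 CPM with 5 lower and the cDC1 list at 888 and 492 CPM with 3 lower. At a subcluster resolution of 1.0, finer groups of cDC2-like nuclei differed in number between the days. A subcluster led by Mt2 had 666 nuclei at D0 and 113 at D5, and one led by Tnfsf9 had 149 and 1436. The part of these markers and of such finer groups in the ratios within the states was not tested.

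The 5 cDC2-like clusters separated the members further. The cluster led by Adgrl3 and Frmd5 (366 and 395 nuclei) had the highest Ptgs2 level among them, 540 CPM at D0 and 499 CPM at D5, together with the highest Hpgds (77.8 and 61.7 CPM) and Lta4h (190 and 198 CPM), while its Hpgd was 27.0 and 28.1 CPM. The cluster led by Sirpb1a, with Hpgd itself among its leading genes, had the reverse, Hpgd at 194 and 108 CPM and Ptgs2 at 82.7 and 54.6 CPM. Ptgs2 and the enzyme that ends prostaglandin signals were thus highest in different cDC2-like clusters. The cluster led by Cyp7b1 and Alox5, nearly the same nuclei as the preDC-like state, had Alox5 at 64.1 and 136 CPM, while the other 4 clusters had between 1.59 and 10.9 CPM. The cycling cluster was intermediate, with Ptgs2 at 216 and 155 CPM. An unnamed cluster led by Il1r2 and Dab2 (352 and 2849 nuclei) had Ptgs2 at 209 and 154 CPM, Hpgd at 53.8 and 45.4 CPM and Alox5 at 4.48 and 9.56 CPM. It carried 4 cDC2 markers. It got no name because Epcam, a gene of the bile duct cell marker list, was among its leading genes while no cDC2 marker was.

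**Figure D3:**
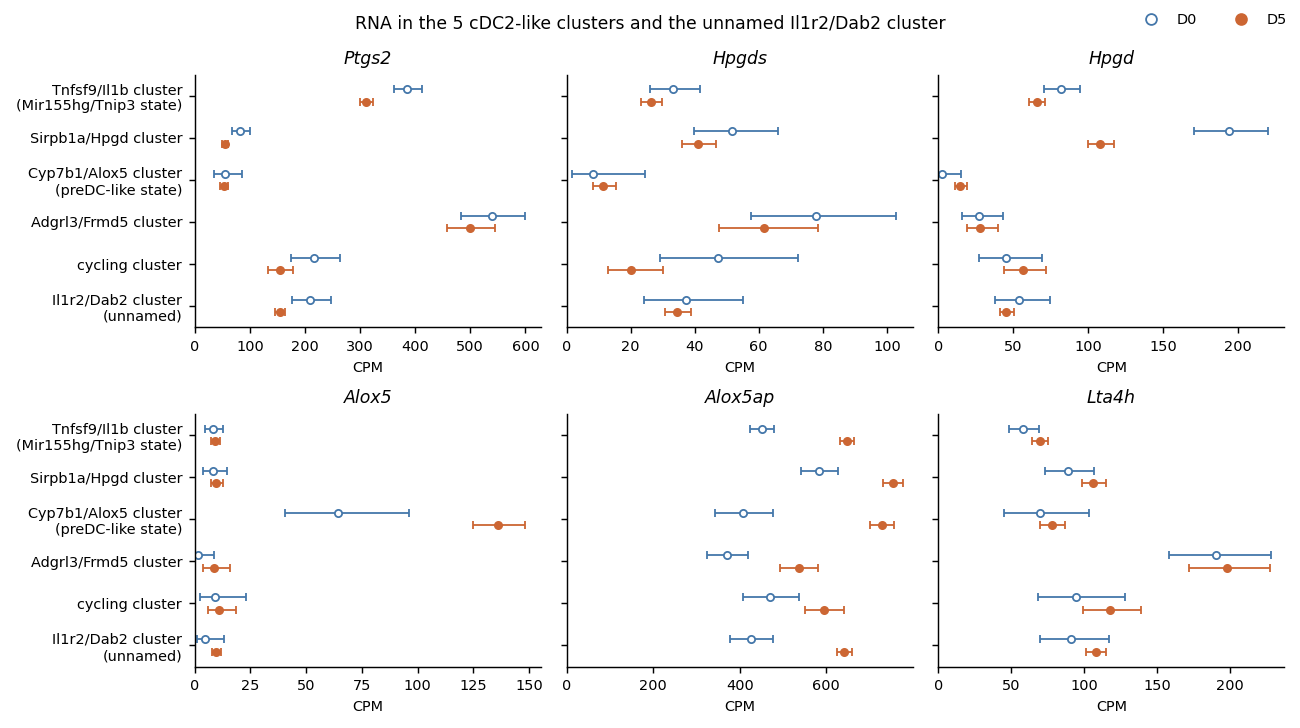
RNA level (x axis, CPM, linear from 0) of 6 members in the 5 cDC2-like clusters and in the unnamed Il1r2/Dab2 cluster (y axis, named by leading genes) at D0 (open) and D5 (filled), with bars for the exact 95% Poisson interval. Alox5 stands out in the Cyp7b1/Alox5 cluster at 64.1 and 136 CPM, Hpgd in the Sirpb1a/Hpgd cluster at 194 and 108 CPM, and Ptgs2, Hpgds and Lta4h in the Adgrl3/Frmd5 cluster.

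The accessibility layer was not used to form the classes or states, so it gives a second reading of the same nuclei. Values are again CPM, here fragments in a region scaled to 1000000 fragments in shared peaks, over nuclei with at least 2000 peak counts, and coordinates are GRCm38 (mm10). Ptgs2 had a single shared region within 10 kb, which lay over its start site at chr1:150099460-150100410. It held 40.8 fragment CPM (34.9 to 47.5) in Mir155hg/Tnip3 nuclei at D0 and 43.6 at D5, and 12.2 (6.09 to 21.8) and 16.2 in preDC-like nuclei. Macrophage-like nuclei had 28.3 and 28.1 and Ccr7+ DC-like nuclei 27.2 and 39.6. The region was nearly closed in the cDC1-like (6.71 and 5.92), pDC-like (1.80 and 2.28) and NK cell-like (1.02 and 0.879) classes. The classes with Ptgs2 RNA above the empty droplets were those with the open start site, with 1 exception, nonclassical monocyte-like nuclei. These had 160 CPM of RNA at D0, and 51.8 CPM at D5, under the empty droplets. They held only 1 and 2 fragments on the 2 days, or 2.99 (0.0758 to 16.7) and 4.75 (0.575 to 17.1) CPM. In T cell-like nuclei 4 fragments at D0 and 0 at D5 were counted.

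The sequence under that region is shown because it is the only shared open site near the gene. RefSeq promoters (GRCm38.p6) were matched by symbol for 8 of the 9 members, all but Alox5ap, and 8 short motifs were searched on both strands, in the 250 bases before and the 50 bases from each start. The share of all 32851 promoters with at least 1 match is given for each. The TATA box was read as TATAAA, found in 13.6% of promoters. The GC box was searched with the letters GGGCGG, which 35.7% of promoters held. The core of the cAMP response element, with the letters TGACG, was present in 20.8%. For AP-1 the letters were TGANTCA, with matches in 7.81%. The PU.1 motif was written GAGGAAG and was present in 13.6%. C/EBP was represented by the pattern TTNNGNAA, which occurred in 40.7% of promoters. The E-box, with the letters CACGTG, was seen in 7.15%. A single form of the kappaB site, with the pattern GGNNNTTCC, occurred in 18.5% of promoters. In each sequence, the 200 bases before the start and the 30 from it are given 5′ to 3′ on the gene's strand, and capitals mark every match. Ptgs2 lies on the plus strand (chr1:150099831-150100060), Alox5 on the minus strand (chr6:116461149-116461378) and Hpgd on the plus strand (chr8:56294352-56294581).
Ptgs2: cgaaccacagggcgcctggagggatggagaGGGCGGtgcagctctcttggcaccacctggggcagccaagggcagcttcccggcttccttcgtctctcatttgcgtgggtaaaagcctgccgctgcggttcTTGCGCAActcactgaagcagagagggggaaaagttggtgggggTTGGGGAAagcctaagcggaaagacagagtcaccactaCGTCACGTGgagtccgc
Alox5: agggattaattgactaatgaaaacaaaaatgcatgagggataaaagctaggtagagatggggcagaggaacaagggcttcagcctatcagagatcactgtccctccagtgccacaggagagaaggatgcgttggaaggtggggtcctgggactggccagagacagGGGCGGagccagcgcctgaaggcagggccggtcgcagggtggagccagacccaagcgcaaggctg
Hpgd: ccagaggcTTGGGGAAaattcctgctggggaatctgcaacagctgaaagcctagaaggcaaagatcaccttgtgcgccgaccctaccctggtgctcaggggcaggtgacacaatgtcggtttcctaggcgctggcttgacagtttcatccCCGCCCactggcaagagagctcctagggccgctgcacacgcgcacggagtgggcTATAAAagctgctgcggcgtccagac

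In Ptgs2, the capitals mark a GC box, 2 places with the C/EBP letters (the first reads on both strands), and the cAMP response element letters on the minus strand, which overlaps the E-box. Alox5 held a GC box alone. Hpgd held a TATA box, a GC box on the minus strand and a C/EBP match. The first base of the TATA box is 4 bases after the RefSeq start by which the sequence is printed. It is 29 bases before the start site given in the deposited files, which lies 33 bases further on. The PU.1 letters were found in the windows of Ptgs1, Hpgds and Ltc4s, the AP-1 letters in none of the 8. A match is a description of letters and says nothing of binding.

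Over the shared regions within 10 kb of each start site, 8 of the 9 members passed 10 fragment CPM in cDC2-like nuclei (Ptges, at 5.30 and 4.97, did not). Between the days 0 of these 8 passed 2-fold, where 0.0605% of all genes' windows did. The Alox5 window had 32.1 fragment CPM at D0 and 40.2 at D5, a log2 ratio of 0.32 (0.14 to 0.51), and the Hpgd window had 27.3 and 21.2, a ratio of -0.36 (-0.58 to -0.14). Ptgs2 stood at -0.09 (-0.29 to 0.10). The same count was 0 of 8 within preDC-like nuclei (1.16% of windows) and 0 of 8 within Mir155hg/Tnip3 nuclei (0.165%), and 0 of 15 single regions passed in cDC2-like nuclei (0.130% of all regions).

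Between the states the windows differed more. At D5, 1 of 8 windows passed 2-fold between preDC-like and Mir155hg/Tnip3 nuclei (3.63% of all windows), that of Ptgs2 at -1.43 (-1.79 to -1.09). At D0, 3 of 8 passed (7.53% of windows): Ptgs2 at -1.74 (-2.77 to -0.87), Hpgds with 27.2 against 54.4 fragment CPM and Alox5 at 1.10 (0.64 to 1.55). The Alox5 window had 67.6 and 58.3 fragment CPM in preDC-like nuclei at D0 and D5, against 31.5 and 37.6 in Mir155hg/Tnip3 nuclei, which at D5 is a ratio of 0.63 (0.41 to 0.85). Nonclassical monocyte-like nuclei, the other class with Alox5 RNA on both days, had 70.3 (44.8 to 105) and 81.9 (56.9 to 114). Macrophage-like nuclei, with 0.699 and 3.79 CPM of Alox5 RNA, still had 44.4 and 36.7 fragment CPM there. The Hpgd window, whose RNA differed by -2.09 at D5, was at -0.31 (-0.70 to 0.07), and its interval left out a 2-fold difference.

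Among single regions, 3 of 15 near the members passed 2-fold between the states at D5, where 11.0% of all measured regions did. The Ptgs2 start site was at -1.43. The region over the Ltc4s start site (chr11:50238323-50239068) was at -1.33 (-1.86 to -0.83), with 7.56 fragment CPM in preDC-like and 19.0 in Mir155hg/Tnip3 nuclei, and reached its highest level, 24.0, in Ccr7+ DC-like nuclei at D0, the dendritic class with the most Ltc4s RNA. A region in the Alox5ap gene body, 7907 bases from the start site (chr5:149272215-149273133), was at 1.02 (0.55 to 1.49), with 15.3 and 7.57 fragment CPM. The strongest Alox5 region in preDC-like nuclei lay in the gene body, 5154 bases from the start site (chr6:116455571-116456477), with 31.6 and 24.1 fragment CPM, against 12.4 in Mir155hg/Tnip3 nuclei at D5, a ratio of 0.96 (0.59 to 1.33) at D5. The region over the Alox5 start site (chr6:116460506-116461463) held only 6.10 and 5.36 in preDC-like and 4.35 and 5.08 in Mir155hg/Tnip3 nuclei.

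**Figure D4:**
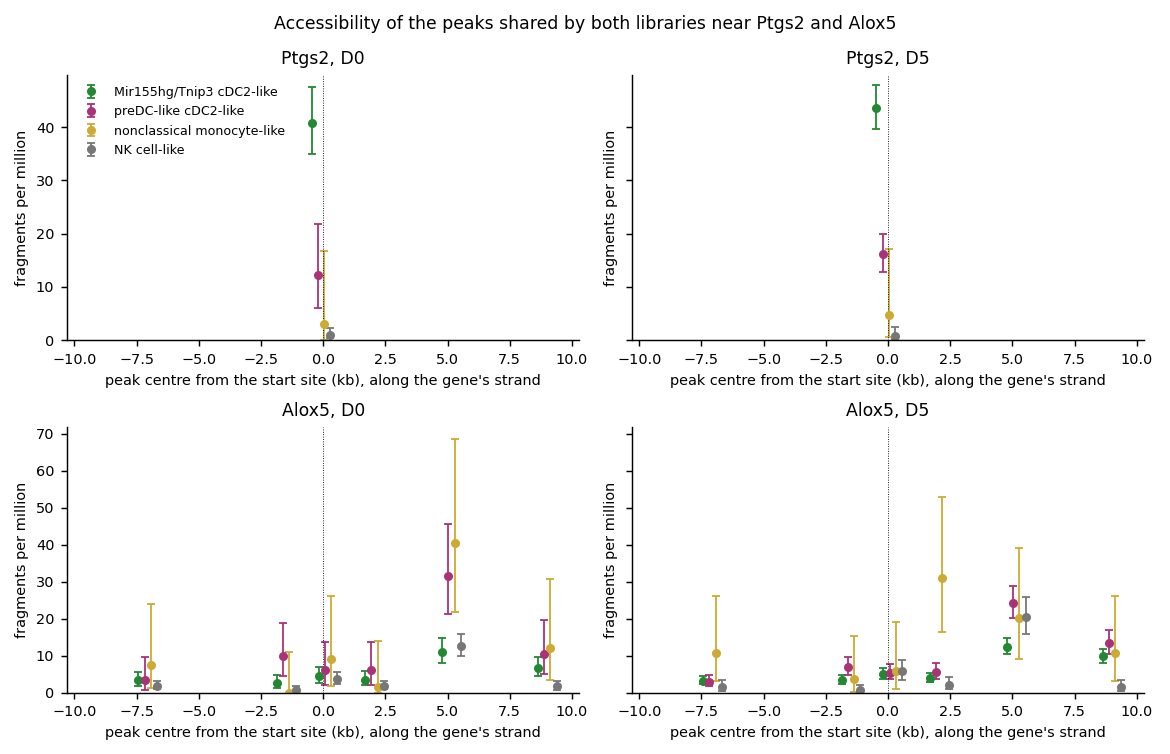
Fragment CPM (y axis, linear from 0) in each shared region within 10 kb of the Ptgs2 (top) and Alox5 (bottom) start sites at D0 (left) and D5 (right), by distance of the region's centre from the start site in kb (x axis; the groups are set slightly apart sideways), with bars for the exact 95% Poisson interval. At Ptgs2 Mir155hg/Tnip3 nuclei stand at 40.8 and 43.6 and preDC-like nuclei at 12.2 and 16.2, while at Alox5, 5154 bases into the gene, preDC-like nuclei stand at 31.6 and 24.1.

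The start sites of Lta4h and Hpgds were open in lymphoid nuclei as well. The region over the Lta4h start site (chr10:93452857-93453773) held between 50.3 and 83.8 fragment CPM in the 8 classes over both days, with 69.2 and 68.2 in NK cell-like nuclei and 56.0 and 57.4 in cDC2-like nuclei. The region over the Hpgds start site (chr6:65144352-65145266) held 30.3 and 30.9 in macrophage-like nuclei and 28.4 and 25.3 in cDC2-like nuclei, but also 23.5 and 24.2 in T cell-like nuclei, where Hpgds RNA rested on 5 and 3 UMIs. For Alox5ap, whose start sites span several kb in the files, the window split lymphoid from myeloid and dendritic nuclei: it held 21.5 and 17.7 fragment CPM in NK cell-like and 18.8 and 25.9 in T cell-like nuclei, and between 83.2 and 145 in the 6 other classes. The region over its start site (chr5:149264570-149265422) was at 15.4 and 17.7 in cDC2-like nuclei and at 2.72 and 1.17 in NK cell-like and 0.391 and 1.70 in T cell-like nuclei. Among groups with at least 100 nuclei in this layer, the highest Alox5ap region, 2379 bases into the gene (chr5:149266738-149267553), reached 52.0 in cDC1-like nuclei at D5. In the fewer nonclassical monocyte-like nuclei of D0 a region 10100 bases into the gene (chr5:149274415-149275318) had 53.9 (31.9 to 85.1), from 18 fragments. The RNA of NK cell-like nuclei, 143 and 207 CPM, went with a start site that was nearly closed in them and with 525 and 730 CPM in empty droplets.

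For the low members, the region over the Ptgs1 start site (chr2:36230054-36230903) was highest in NK cell-like nuclei, at 22.5 and 20.1 fragment CPM, followed by T cell-like nuclei at 16.8 and 16.1 and macrophage-like nuclei at 13.1 and 6.15, against 6.70 and 5.99 in cDC2-like nuclei. The largest Ptgs1 region, that with the highest level in any class or state, was centred at -10131 bases from the main start site, within the span RefSeq (GRCm38.p6) gives the gene (chr2:36219845-36220745), and was highest in preDC-like nuclei at 28.3 and 25.0, where no more than 2 Ptgs1 UMIs were counted. The region over the Ptges start site (chr2:30902748-30903612) reached at most 1.60 in the 8 classes, and the largest Ptges region, 6057 bases from the start site (chr2:30896743-30897736), reached 11.6 in pDC-like nuclei at D0. The region over the Hpgd start site (chr8:56294230-56295096) was at 5.98 and 7.12 in nonclassical monocyte-like nuclei, and the largest Hpgd region, centred at -2160 bases from the start site (chr8:56291983-56292867), at 18.0 and 17.8 in the same nuclei, from 6 and 7.5 fragments, against 4.41 and 3.08 in cDC2-like nuclei. In cDC2-like nuclei the largest Hpgd region was another, 6855 bases into the gene (chr8:56300981-56301899), at 11.8 and 9.13, with 2.99 and 8.31 in nonclassical monocyte-like nuclei. The largest Ltc4s region lay 1717 bases from the start site (chr11:50236373-50237257) and was highest in NK cell-like nuclei at 65.3 and 68.2, a class with at most 7 Ltc4s UMIs.

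**Figure D5:**
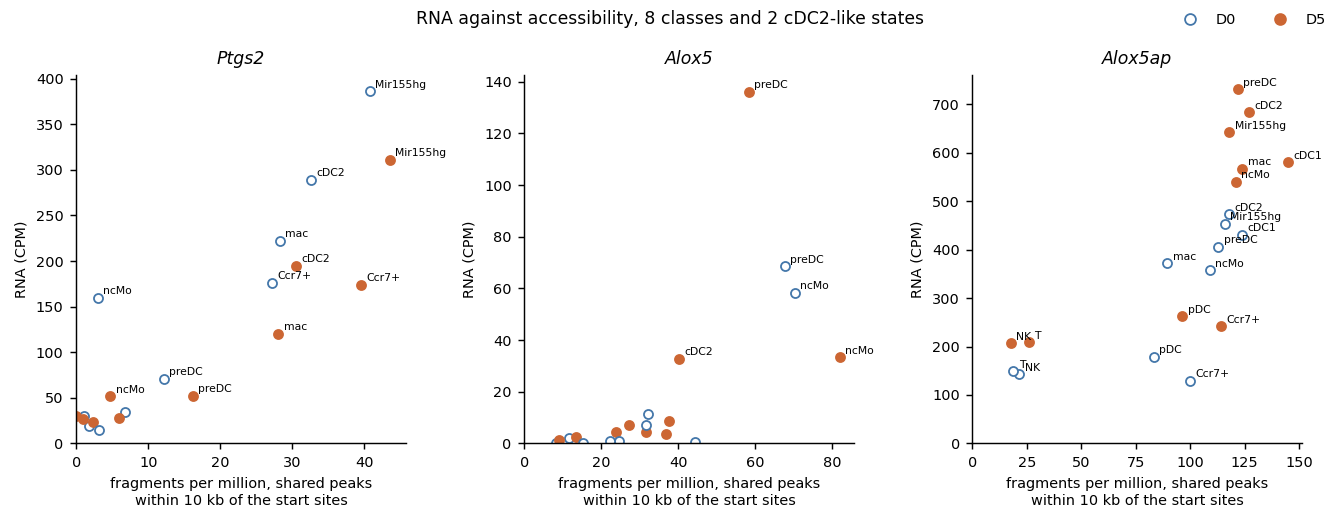
RNA level (y axis, CPM) against fragment CPM in the shared regions within 10 kb (x axis) for Ptgs2, Alox5 and Alox5ap in 8 classes and 2 cDC2-like states (mac, macrophage-like; ncMo, nonclassical monocyte-like; Mir155hg, the Mir155hg/Tnip3 state; points of low RNA are unlabelled) at D0 (open) and D5 (filled). Nonclassical monocyte-like nuclei at D0 have Ptgs2 RNA of 160 CPM at 2.99 fragment CPM, and NK cell-like and T cell-like nuclei have Alox5ap RNA at 17.7 to 25.9 fragment CPM.

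The genes whose RNA followed each member most closely were named by Pearson's r of log2(CPM + 1) over 22 profiles, the classes and cDC2-like states on both days, among genes with a mean of at least 10 CPM. The profiles share libraries and the states overlap the cDC2-like class, so r is a description. Ptgs2 was followed by Il1b (interleukin-1 beta; r = 0.93), Mcemp1 (0.90) and Cd80 (a costimulatory ligand; 0.90). Hpgd was followed by Clec4a3 (0.93), Adgre1 (F4/80; 0.93) and Itgb5 (0.92), Alox5ap by Pitpna (0.91) and Gm2a (0.90), Alox5 by Cks2 (0.82), Cd300a (0.81) and Msn (0.79), and Hpgds by Dst (0.84), Slc38a6 (0.82) and Ica1l (0.81). Without the 6 neutrophil-like nuclei of D0, the r of Slc38a6 and Ica1l was 0.72 and 0.70, and the genes nearest to Lta4h, Rfc2 (0.97), Tsc22d4 (0.97) and 2310033P09Rik (0.96), had 0.81, 0.82 and 0.79. The low members gave Nt5e (0.78), Cish (0.78) and Aoah (0.77) for Ptgs1, Zswim4 (0.86), Tnfrsf23 (0.82) and Nfkbib (0.82) for Ltc4s, and Hp (0.80), Arnt (0.73) and Fn1 (0.69) for Ptges.

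Around the 9 genes, a list of 47 other genes of arachidonic acid release, metabolism, transport and reception was measured. In cDC2-like nuclei 14 of them passed 10 CPM, 1 was past 2-fold higher at D5 and 1 lower (4.03% of all genes passed), and their median log2 ratio was 0.03, beside -0.11 over all genes. Tbxas1 (thromboxane A synthase, which also uses prostaglandin H2) was the lower one, at 132 and 46.5 CPM (-1.50; -1.65 to -1.36), and it was past 2-fold lower in macrophage-like nuclei too, where it was highest, at 397 and 164 CPM (-1.28; -1.46 to -1.10). Mgst3, a microsomal glutathione transferase, was the higher one, with 69 and 615 UMIs and 28.3 CPM at D5 (1.01; 0.65 to 1.39). In nonclassical monocyte-like nuclei 3 of 17 measured list genes were past 2-fold higher and 4 lower, where 25.2% of all genes passed. In the 6 other classes between 0 and 1 list gene was past 2-fold higher and between 0 and 3 lower, of 10 to 17 measured, where 2.00% to 10.2% of all genes passed. Between the states at D5, 1 of 15 list genes was past 2-fold higher in preDC-like nuclei and 3 were lower (12.2% of all genes). The higher one was the prostaglandin reductase Ptgr1, with 23.5 CPM against 4.02 CPM in Mir155hg/Tnip3 nuclei, and the lower ones were Ltb4r1, Tbxas1 and Dpep2, all 4 named after their values were seen.

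List genes at 50 CPM or more are given for the class in which they were highest. Pla2g4a, the cytosolic phospholipase that releases arachidonic acid, was highest in macrophage-like nuclei at 106 and 80.6 CPM; the cDC2-like level was 43.3 and 29.7 CPM. Pparg, a nuclear receptor for lipid ligands, had 1110 and 784 CPM in nonclassical monocyte-like nuclei, and Pla2g7, which breaks down platelet-activating factor, had 248 and 333 CPM in them. The lower of the class levels there, for the peptidase Dpep2 (102 and 48.1 CPM) and the exporter Abcc4 (65.7 and 70.3 CPM, beside 61.0 and 64.0 CPM in cDC2-like nuclei), rested on at most 19 UMIs. Among receptors, Cysltr2 for cysteinyl leukotrienes had 293 and 181 CPM in NK cell-like nuclei, Cysltr1 was highest in the cDC2-like class (46.6 and 57.3 CPM), and the prostaglandin E2 receptor Ptger4 was highest in Ccr7+ DC-like nuclei (308 and 270 CPM), with 279 and 221 CPM in cDC2-like nuclei. The leukotriene exporter Abcc1 was highest in pDC-like nuclei (116 and 96.0 CPM), Ptges3 in cDC1-like nuclei (204 and 236 CPM, with 183 and 202 CPM in cDC2-like nuclei) and Akr1b3 in T cell-like nuclei (126 and 115 CPM). In neutrophil-like nuclei at D5 the leukotriene B4 receptor Ltb4r1 had 82.8 CPM, beside 82.2 and 61.7 CPM in cDC2-like nuclei, and Cyp4f18, which inactivates leukotriene B4, 243 CPM.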

How the data were processed

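The deposited RNA matrices hold raw counts (UMIs per gene and barcode), which per the file headers the authors made with Cell Ranger. The joint matrices hold deposited raw counts for genes and for each library's own peaks; the submitters' processing notes name Cell Ranger ARC 2.0.2 and mm10. Whether intronic reads were counted is not given in the sources used here. D5 joint barcodes were matched by identical counts over all genes. Barcodes under 1000 UMIs or over 10% mitochondrial UMIs were dropped, as were those with a Scrublet score of 0.2 or higher (scanpy 1.11.5; 23.1% of nuclei at D0, 25.5% at D5). Both days were clustered together (2000 variable genes, 30 components, 15 neighbours, Leiden 1.0; cDC2-like nuclei again at 0.5). Clusters took the class with the largest share of raised markers, at least 4, and states needed 3. No name was given where another class had at least 4 markers and over 0.6 of that share. This was waived where the class gave 3 or more of the leading genes and the other none. The waiver applied to T cell-like nuclei, with 7 of 8 NK cell markers, and neutrophil-like nuclei, with 5 of 9 cDC2 markers. These thresholds were set with the clusters in view. The members, the marker and pathway lists and the alternatives were chosen with earlier results of these data known. The named genes are all members, the 3 genes of most similar pattern to each (1 of those for Alox5ap is not reported here), and list genes past 2-fold in cDC2-like nuclei or at 50 CPM or more where highest. Peak counts were halved to fragments, as 70.4% and 75.1% of entries equalled 2. Intervals are exact Poisson or conditional binomial and were tested on simulated data. TMM factors came from edgeR 4.0.16.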

Additional observations from a re-analysis of the deposited data

Results flagged for a closer look

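Hpgds differed in direction between 2 classes whose counting intervals both left out 0. Its log2 ratio, D5 over D0, was -0.85 in pDC-like nuclei and 1.51 in Ccr7+ DC-like nuclei, the latter from 4 UMIs at D0. Lta4h likewise stood at -1.16 in nonclassical monocyte-like nuclei, from 25 and 22 UMIs, and at 0.57 in Ccr7+ DC-like nuclei. With 1 library per day, the difference between the classes was not tested in either case.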

How the results depend on the processing

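No paired analysis was possible because each day has 1 library and no comparison has replicates. The median ratio of the members in cDC2-like nuclei between the days (-0.24) was 0.02 with TMM factors and -0.41 at a Leiden resolution of 1.5. That between the states at D5 (-0.69) was -1.45 when genes from 1 CPM upward entered. The 9 of 39 pairs of class and member past 2-fold (8.01% of pairs with any gene) became 20 of 59 with genes from 1 CPM upward (20.0%) and 15 of 39 at 1.5-fold (24.6%). The ratio of Alox5ap between the states (0.19) was -0.15 with TMM factors and -0.06 at a subcluster resolution of 1.0. Alox5 between the days in cDC2-like nuclei (1.52) was 0.48 at Leiden 1.5, where the preDC-like cluster was not named cDC2-like, and 0.79 with the states at their D0 shares, an alternative added after the data had been seen. Leaving out the Adgrl3/Frmd5 cluster or adding the Il1r2/Dab2 cluster, both added likewise, kept the median within its counting interval. Between the states, Ptgs2 (-2.56) was -1.15, Hpgd (-2.09) -3.44, Hpgds (-1.45) -2.29 and Alox5 at least 76.7-fold higher in preDC-like nuclei at a subcluster resolution of 1.0, where the 585 Clec10a+ nuclei held 0 Alox5 UMIs (floor of 3 counts, or 1.79 CPM). Without removal of doublets Hpgd was -1.28 and Alox5 (3.94) was 3.12. Of the other comparisons between settings, the accessibility medians kept within counting error. Low counts limit Ptges, Ptgs1, Ltc4s and all values of nonclassical monocyte-like and neutrophil-like nuclei. The part of free RNA in the Alox5ap levels was not tested.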

Other observations

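Among the cDC1-like clusters, one led by interferon-response genes such as Cxcl10, Ifit1 and Rsad2 (144 nuclei at D0 and 114 at D5) had Ptgs2 at 133 CPM (98.0 to 176) at D0 and 156 CPM (119 to 200) at D5. The other 3 cDC1-like clusters had between 7.92 and 37.5 CPM. The name of the interferon-response cluster rested on 5 of 8 cDC1 markers, against 8 of 8 in each of the other 3. At a Leiden resolution of 1.5, the cluster led by these genes held 151 nuclei at D0 and 121 at D5. It carried 3 of 8 cDC1 markers, too few for a name. Whether this Ptgs2 RNA came from cDC1 nuclei was not tested.

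Neutrophil-like nuclei at D5 (93 nuclei) held Ptgs2, Alox5, Alox5ap and Ltc4s at 554, 72.5, 766 and 51.8 CPM. Their Ptgs2 start site had 59.6 fragment CPM (27.9 to 111) in the 46 nuclei with enough peak counts.

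A few regions near the members were called as peaks in 1 library and therefore entered no comparison. At D5 these were 2 regions 8625 and 9572 bases downstream of the Ptgs2 start site, with 4.17 and 2.23 fragment CPM in Mir155hg/Tnip3 nuclei, 1 near Ptges and 1 in the Alox5 gene body. At D0 it was 1 region centred at -2085 bases from the Ltc4s start site, with 3.97 in NK cell-like nuclei. With 1 library per day, deeper at D5 in RNA and with more peaks called, a peak in 1 library alone was not compared with the other.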
